A study of Drosophila melanogaster with 4 samples.

Results

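The glutathione S-transferases (GSTs) of Drosophila melanogaster are described here in third-instar larvae that carry a duplication of Inr-a, set against wild type larvae. Members are all genes whose symbol is Gst, a class letter (D, E, O, S, T or Z) and a number. The rule took 35 genes with 54 transcripts, out of 14029 genes with 30090 transcripts in the deposited values. They fall into 11 genes of class D (delta), 14 of class E (epsilon), 3 of class O (omega), 1 of class S (sigma), 4 of class T (theta) and 2 of class Z (zeta). Levels are CPM, the counts of a gene scaled so that all counts of its library sum to 1000000.

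GSTs are enzymes that join the tripeptide glutathione to reactive, electrophilic compounds, which makes these compounds more soluble and easier to excrete. They form part of the phase II of detoxification, after the cytochrome P450 enzymes of phase I, and several of them also act on the lipid peroxides that oxidative stress leaves behind. The delta and epsilon classes are expanded in insects, sit in gene clusters and are known for insecticide resistance, while omega, sigma, theta and zeta GSTs are also found in vertebrates. Many delta and epsilon genes are known targets of the transcription factor CncC, which the adaptor protein Keap1 holds in check.

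The study asked how an added dose of Inr-a, also called Pcf11, which encodes an mRNA cleavage and termination factor, changes expression across the genome. The Inr-a duplication larvae (genotype pcf11/+ in the labels) had a Canton S mother and a father of genotype w[a]; Pcf11Dup/CyO GFP, and lacked the GFP that marks the CyO balancer. The wild type larvae (+/+) came from the Canton S stock. Both groups were raised at 25 °C and are labelled male, although the description of the cross states how the sex was chosen for wild type only, and each has 2 libraries made from total RNA of pooled whole larvae. The duplication larvae thus also differ from wild type by what they inherited from the duplication stock, and the effects of the duplication and of this background cannot be told apart. The files give 1 mean per genotype, from which the counts of single libraries were recovered, so libraries are called A (the deeper of its genotype) and B, and these letters say nothing of the study's replicate numbering. For the Inr-a duplication, library A held 15423445 counts and library B 14084653, and for wild type, A held 12558720 and B 11304266. All 54 transcripts of the family gave exactly 1 pair of counts in each genotype.

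Inr-a itself stood at 83.3 and 95.0 CPM in the Inr-a duplication libraries, against 60.4 and 58.0 CPM in wild type, without overlap. The means were 89.2 CPM in the Inr-a duplication and 59.2 CPM in wild type. Its log2 fold change of 0.62 (SE 0.26) had an unadjusted p of 0.0244 and an adjusted p of 0.18 in limma, so its higher level did not pass the threshold. Genes of the third-instar fat body were abundant in both groups but not equal, and the authors' means are used for them. The larval serum protein genes Lsp1alpha, Lsp1beta and Lsp1gamma had means of 4878, 14839 and 6373 CPM in the Inr-a duplication against 1542, 7004 and 1403 CPM in wild type, Lsp2 had 24750 against 22171 CPM, and Fbp1 had 21196 against 28992 CPM. Of the yolk protein genes of adult females, Yp1 was listed at 0 in both genotypes and Yp2 and Yp3 were low, Yp3 with a mean of 1.42 CPM in the Inr-a duplication and 2.69 CPM in wild type. Several marker lists of other tissues and of heat stress held called genes. Of 6 hemocyte genes tested, 4 were called higher in the Inr-a duplication (PPO1, PPO2, Hml and NimC1), and the summed level of the list was 283 and 437 CPM in the Inr-a duplication against 138 and 89.7 CPM in wild type. Of 4 muscle genes tested, 2 were called higher (Mhc and Act57B), with summed levels of 2460 and 4106 CPM against 1647 and 1192 CPM. Mlc2 had no values per library and is not in these sums. With it, the muscle list had means of 4639 CPM in the Inr-a duplication and 1967 CPM in wild type. Of 9 heat shock genes tested, 1 was called higher (Hsp70Ba, from 22 and 32 counts against 2 and 0) and 7 lower. Hsp70Ab, with 0 counts in both Inr-a duplication libraries, was among the 7. How reads were shared among the Hsp70 genes was not tested. Without Hsp70Aa and Hsp23, the summed levels were 987 and 1314 CPM in the Inr-a duplication against 2870 and 1954 CPM in wild type. With them, the heat shock list had means of 3759 CPM in the Inr-a duplication and 7364 CPM in wild type. Of 8 midgut genes tested, 3 were called higher (betaTry, Mal-A1 and Amy-d), with summed levels of 4362 and 3398 CPM in the Inr-a duplication against 2475 and 2554 CPM in wild type. These sums leave out Jon65Aiii, Jon65Aiv and Jon99Cii, which had no values per library. With them, the midgut list had means of 23726 CPM in the Inr-a duplication and 15484 CPM in wild type. Of 3 larval cuticle genes tested, 2 were called higher (Lcp3 and Lcp4), with summed levels of 3756 and 4513 CPM against 824 and 1012 CPM. Lcp1 and Lcp2 are likewise missing from these sums. With them, the cuticle list had means of 15644 CPM in the Inr-a duplication and 6835 CPM in wild type. Of 9 Malpighian tubule genes tested, 0 were called. By an unadjusted p below 0.05 in limma, 1 stood higher and 1 lower, where 12.2% and 8.61% of all genes tested did so. The summed levels of the list were 325 and 353 CPM in the Inr-a duplication against 442 and 354 CPM in wild type. The part of these differences in the values of the GST genes was not tested.

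A few GST genes differed between the genotypes, in both directions. Of the 30 members that had enough counts for the test, 3 were called higher in the Inr-a duplication (GstD10, GstE5 and GstE7), 1 was called lower (GstE8) and 26 were not called. GstE5, and GstD5 among the uncalled, passed the count filter only through their Inr-a duplication libraries. A call is an adjusted p below 0.05 in limma over all 11540 genes tested. Among all these genes, 1.72% were called higher and 0.503% lower. The log2 fold changes of the 30 members were positive in 15 and negative in 15, with a median of -0.01, beside 0.02 over all genes tested. The 26 uncalled members ranged from -0.64 to 0.94, with adjusted p from 0.153 to 0.968. In CPM, 12 of the 30 had both duplication libraries higher than either wild type library, 10 had both lower, and 8 overlapped. Over all genes tested these shares were 22.9% and 30.3%. The RNA came from whole larvae, so fewer cells of a kind and less RNA per cell cannot be told apart in any of these values.

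The levels of the members ranged widely, between a handful of counts and the level of GstD1. Per kilobase of transcript, GstD1 was the most abundant in both genotypes, at 934 CPM per kb in the Inr-a duplication and 773 CPM per kb in wild type. GstE12, GstS1, GstO3 and GstE3 followed in the Inr-a duplication, at 343, 266, 248 and 241 CPM per kb. In wild type the same 4 genes stood at 425 for GstE12, 214 for GstS1, 283 for GstO3 and 153 for GstE3. Together with GstD1 these genes held 70.9% of the summed CPM of the family in the Inr-a duplication and 66.4% in wild type.

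**Figure D1:**
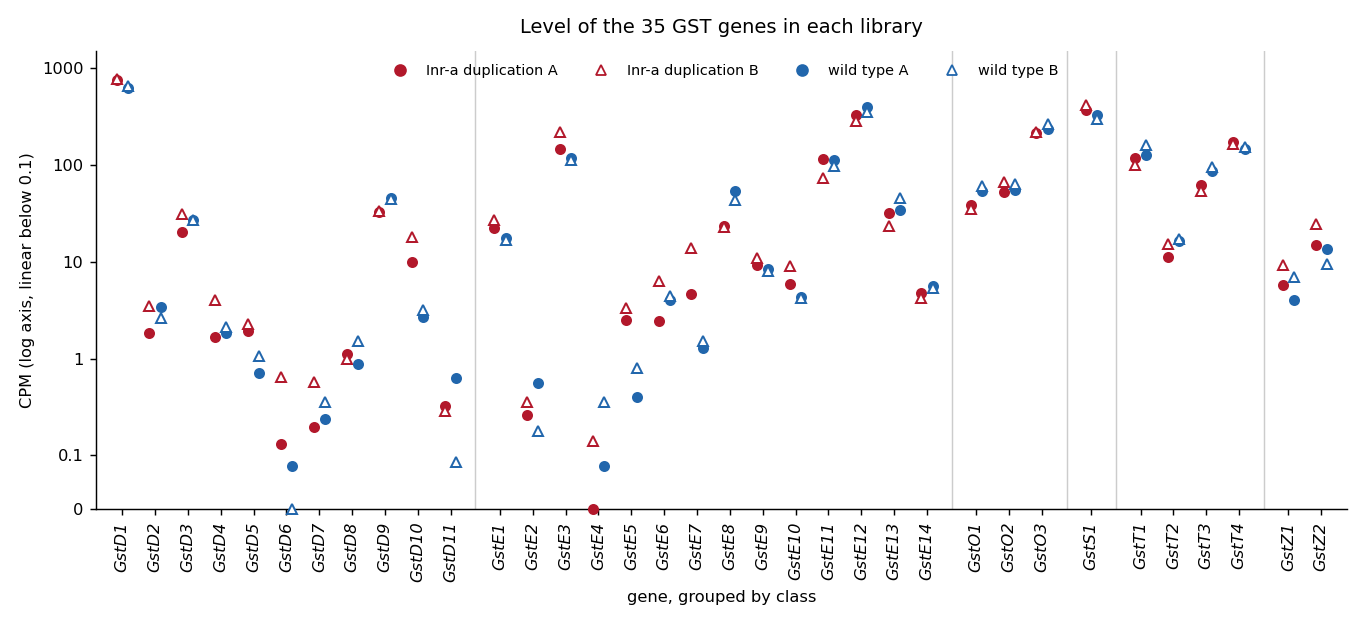
Level of each of the 35 GST genes in CPM on a logarithmic axis that is linear below 0.1, in the Inr-a duplication (red) and wild type (blue), with a mark each for libraries A and B, with genes grouped by class. GstD1 lies highest in all 4 libraries, and GstD10, GstE5 and GstE7 show both red points clear above both blue points, while GstE8 shows both below.

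GstD1 is the best known gene of the delta class and a common reporter of oxidative stress. It had 764 and 777 CPM in the Inr-a duplication and 625 and 651 CPM in wild type. The libraries did not overlap, but the log2 fold change of 0.30 (SE 0.28) had an adjusted p of 0.554 (limma) and was not called. It accounted for 29.3% of the summed CPM of the family in the Inr-a duplication and 25.0% in wild type.

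GstD10 gave the only call in the delta class. It lies on chromosome arm 3R, minus strand, 12364776 to 12365735, at one end of the GstD cluster, in which all 11 delta genes sit within 20849 bases. GstD10 had 9.86 and 18.0 CPM in the Inr-a duplication, from 152 and 254 counts, against 2.71 and 3.18 CPM in wild type, from 34 and 36 counts. Both Inr-a duplication libraries stood far above both wild type libraries, and they differed from each other as well. The log2 fold change was 2.04 (SE 0.32, adjusted p 0.000492 by limma), which is 4.11-fold on the log2(CPM + 0.5) scale used. GstD9, its neighbour 427 bases away on the same strand, had a log2 fold change of the opposite sign that was not called, at 33.0 and 33.7 CPM in the Inr-a duplication against 46.1 and 44.4 CPM in wild type (log2 fold change -0.40, adjusted p 0.371 by limma). The sum of GstD9 and GstD10, which does not depend on how reads were shared between them, was 42.9 and 51.7 CPM in the Inr-a duplication and 48.8 and 47.6 CPM in wild type, so the libraries overlapped. GstD9 made up most of this sum, so its overlap says little of GstD10. How reads were shared among the delta genes was not tested.

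Among the other delta genes, GstD5 had the largest log2 fold change, 0.94 (SE 0.39), with an unadjusted p of 0.0236 and an adjusted p of 0.177 in limma. It had 1.95 and 2.27 CPM in the Inr-a duplication, from 30 and 32 counts, and 0.717 and 1.06 CPM in wild type, from 9 and 12 counts. The groups did not overlap, at levels that rest on few counts. The wild type libraries of GstD5 alone would not have passed the count filter. GstD2, GstD3, GstD4 and GstD8 overlapped between the genotypes, with log2 fold changes between -0.19 and 0.37. GstD6, GstD7 and GstD11 had too few counts for the test. GstD6 had 2 and 9 counts in the Inr-a duplication and 1 and 0 counts in wild type, and a count of 0 allows up to 3 counts. GstD7 had 3 and 8 counts against 3 and 4, and GstD11 had 5 and 4 counts against 8 and 1.

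The epsilon class held the other 3 calls, all in the GstE cluster, where 10 genes from GstE10 to GstE9 share 13198 bases of chromosome arm 2R. In genome order the cluster ran as GstE10, GstE1, GstE2, GstE3, GstE4, GstE5, GstE6, GstE7, GstE8 and GstE9. Of the 8 of them that were tested, GstE5 and GstE7 were called higher and GstE8 lower. These calls lie within 4 consecutive genes, with GstE6 between the first pair.

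GstE7 (2R, plus strand, 18406924 to 18407688) had the largest log2 fold change of the family, 2.22 (SE 0.39, adjusted p 0.00153 by limma). It had 4.67 and 13.99 CPM in the Inr-a duplication, from 72 and 197 counts, against 1.27 and 1.504 CPM in wild type, from 16 and 17 counts. The wild type libraries lay close together, and Inr-a duplication library B was 2.996 times library A. Without library B the log2 fold change was smaller, 1.54, and its adjusted p of 0.124 was above the threshold.

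GstE5 (2R, plus strand, 18404605 to 18405338) had 2.53 and 3.34 CPM in the Inr-a duplication, from 39 and 47 counts, against 0.398 and 0.796 CPM in wild type, from 5 and 9 counts. The groups did not overlap. The wild type libraries of GstE5 alone would not have passed the count filter, so it was tested only because of its Inr-a duplication libraries. A stricter count filter left GstE5 out of the test. The log2 fold change was 1.68 (SE 0.39, adjusted p 0.0219 by limma). The ratio of the mean CPM was 4.91, larger than the 3.21-fold of the log2(CPM + 0.5) scale, since the added 0.5 shrinks the change of genes this low. Without Inr-a duplication library B the adjusted p of GstE5 was 0.166.

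GstE8 (2R, plus strand, 18407834 to 18408955) fell to 23.7 and 22.9 CPM in the Inr-a duplication, from 365 and 323 counts, against 54.1 and 43.2 CPM in wild type, from 679 and 488 counts. The Inr-a duplication libraries were nearly equal and both lay under the lower wild type library. The log2 fold change was -1.01 (SE 0.27), and the adjusted p of 0.0469 (limma) was just under the threshold. The call was lost without wild type library A (adjusted p 0.154) and without Inr-a duplication library B (adjusted p 0.240), with the direction the same in both.

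GstE7 and GstE8 are neighbours on the same strand, 145 bases apart, and the genes of this cluster are close relatives. Reads shared between them may have been split by the quantification, which was not tested. The sum of GstE7 and GstE8 was 28.3 and 36.9 CPM in the Inr-a duplication and 55.3 and 44.7 CPM in wild type, lower in both Inr-a duplication libraries. The sum over GstE5, GstE6, GstE7 and GstE8 was 33.3 and 46.6 CPM against 59.8 and 49.9 CPM. GstE6, between GstE5 and GstE7, had 2.46 and 6.39 CPM in the Inr-a duplication around 4.06 and 4.42 CPM in wild type, with a log2 fold change of -0.04.

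GstE3, the most abundant gene of the cluster, had 146 and 218 CPM in the Inr-a duplication against 118 and 113 CPM in wild type. The libraries did not overlap, and the log2 fold change of 0.66 (SE 0.27) had an unadjusted p of 0.0213 and an adjusted p of 0.169 in limma. GstE10 showed 5.84 and 9.09 CPM against 4.2998 and 4.2462 CPM, a log2 fold change of 0.74 (SE 0.32, adjusted p 0.196 by limma). GstE1 had 22.2 and 27.1 CPM against 17.4 and 16.8 CPM, and GstE9 had 9.34 and 11.005 CPM against 8.44 and 7.96 CPM. GstE3, GstE10, GstE1 and GstE9 were thus higher in either duplication library than in either wild type library, and none was called. GstE2 had 4 and 5 counts in the Inr-a duplication against 7 and 2 in wild type, and GstE4 had 0 and 2 counts against 1 and 4, too few for the test.

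**Figure D2:**
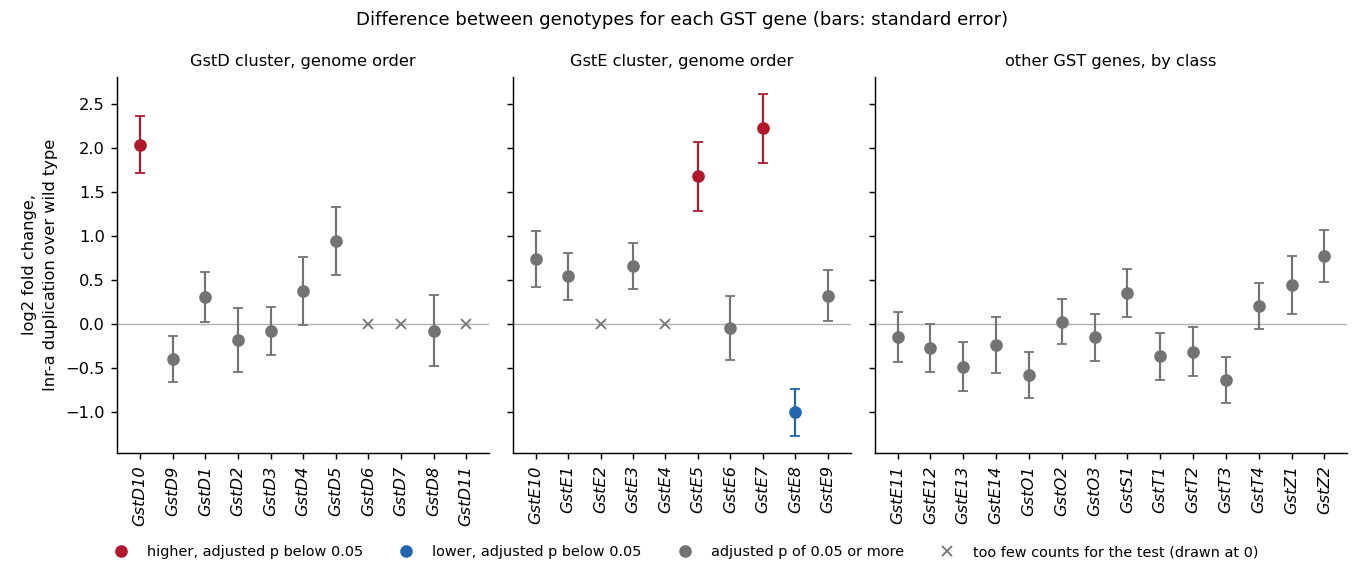
Log2 fold change of each GST gene, Inr-a duplication over wild type, with its standard error, for the GstD cluster and the GstE cluster in genome order and for the other GST genes by class. GstD10, GstE5 and GstE7 are called higher, GstE8 next to GstE7 is called lower, and 5 genes marked by a cross had too few counts for the test.

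The epsilon genes outside the cluster had negative log2 fold changes, and none was called. GstE12, the most abundant epsilon gene, had 325 and 284 CPM in the Inr-a duplication against 400.0 and 355 CPM in wild type, a log2 fold change of -0.28 (SE 0.27, adjusted p 0.579 by limma). GstE13 had 31.8 and 23.6 CPM against 34.5 and 45.4 CPM. GstE14, known as noppera-bo, is needed in the prothoracic gland for the synthesis of the moulting hormone ecdysone. It had 4.73 and 4.19 CPM in the Inr-a duplication and 5.57 and 5.40 CPM in wild type, with a log2 fold change of -0.24 (SE 0.32, adjusted p 0.688 by limma). GstE11 overlapped, at 116 and 73.9 CPM against 112 and 98.8 CPM, and was the member in which Inr-a duplication library A exceeded library B most.

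None of the 10 genes of the remaining classes was called. GstS1, the sigma GST, which is abundant in insect muscle, had 367 and 416 CPM in the Inr-a duplication against 326 and 301 CPM in wild type. Its libraries did not overlap and its log2 fold change was 0.35 (SE 0.27, adjusted p 0.468 by limma). Muscle genes stood higher in the same Inr-a duplication libraries, as given above, and their part in the level of GstS1 was not tested.

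In the omega class, whose members have a cysteine at the active site, GstO3 was the most abundant, at 217 and 220 CPM in the Inr-a duplication against 234 and 265 CPM in wild type (log2 fold change -0.16, adjusted p 0.766 by limma). GstO1 had 38.8 and 35.4 CPM against 53.6 and 60.3 CPM. Its libraries did not overlap, and the log2 fold change of -0.58 (SE 0.26) had an unadjusted p of 0.0366 and an adjusted p of 0.212 in limma. GstO2 had 52.5 and 67.1 CPM against 55.6 and 64.0 CPM and overlapped.

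In the theta class, GstT4 on the X chromosome had the highest mean CPM in both genotypes. It stood at 173 and 164 CPM in the Inr-a duplication against 147 and 153 CPM in wild type (log2 fold change 0.20, adjusted p 0.684 by limma). Per kilobase of transcript, GstT4 led GstT1 in the Inr-a duplication (138 against 109 CPM per kb) but not in wild type (123 against 145). GstT3, also X-linked, had 61.7 and 53.6 CPM against 87.6 and 96.1 CPM, a log2 fold change of -0.64 (SE 0.26) with an unadjusted p of 0.0224 and an adjusted p of 0.174 in limma. GstT1 had 118 and 99.5 CPM against 128 and 161 CPM, and GstT2 had 11.2 and 15.3 CPM against 16.2 and 17.3 CPM. These 3 genes lay below wild type in both Inr-a duplication libraries, and GstT4 above it.

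Zeta GSTs are known as the maleylacetoacetate isomerase of tyrosine breakdown. GstZ2 had 14.98 and 24.8 CPM in the Inr-a duplication against 13.5 and 9.47 CPM in wild type, a log2 fold change of 0.77 (SE 0.30) with an unadjusted p of 0.0163 and an adjusted p of 0.153 in limma, the lowest among the uncalled members. GstZ1, its neighbour on 3R, had 5.71 and 9.23 CPM against 4.06 and 6.99 CPM, and overlapped.

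By an unadjusted p below 0.05, which leaves chance results in, 7 of the 30 members stood higher in the Inr-a duplication and 3 lower, where 12.2% and 8.61% of all genes tested did so, 1404 and 994 genes. When CPM were scaled by library size in place of TMM (the trimmed mean of M-values), the genome-wide split was 1076 higher and 1166 lower, and that of the members 6 and 3. The 4 calls differed in how they held up over the alternatives tried. GstD10 was called under 11 of 12 alternatives, GstE7 under 8 of 12, GstE5 under 7 of 11 and GstE8 under 5 of 12, with the sign the same under each.

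**Figure D3:**
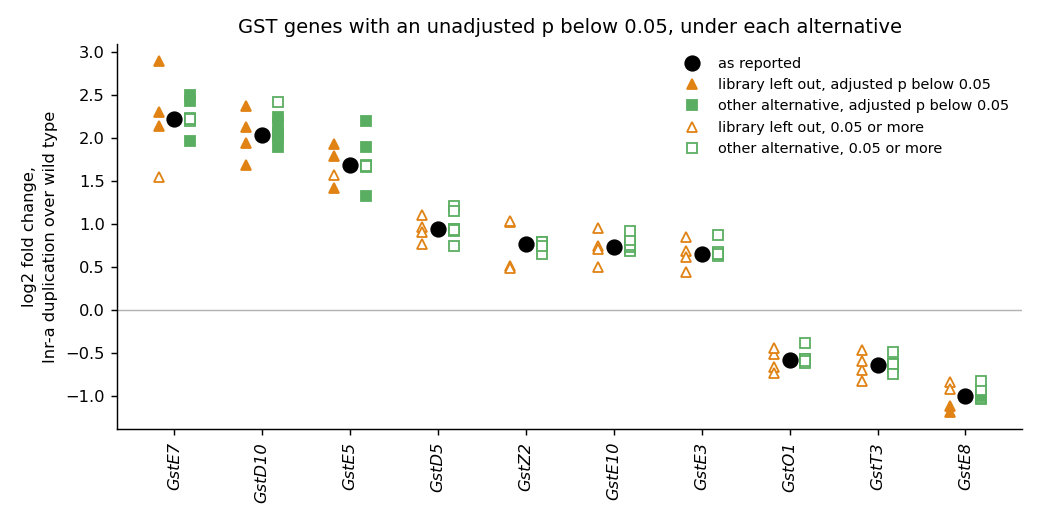
Log2 fold change, Inr-a duplication over wild type, of the 10 GST genes with an unadjusted p below 0.05, as reported (black) and under each alternative, with libraries left out as triangles and other alternatives as squares, filled where the adjusted p was below 0.05. Each gene keeps its sign under every alternative drawn, GstD10 is filled in all but 1, and the 6 genes between GstE5 and GstE8 have no filled symbol.

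Summed over genes, the classes differed less between the genotypes than the called genes did, and these sums are a description with no test. The whole family had 2589 and 2675 CPM in the Inr-a duplication against 2535 and 2565 CPM in wild type, a ratio of 1.03 ± 0.026 (SD from the spread between libraries, n = 2 each). Class D had 834 and 872 CPM against 708 and 734 CPM, a ratio of 1.183 ± 0.047. That ratio was carried by GstD1: without it the other 10 delta genes summed to 70.3 and 94.9 CPM against 83.7 and 82.6 CPM, with overlap. Without GstD1 the family as a whole had 1825 and 1899 CPM in the Inr-a duplication and 1910 and 1914 CPM in wild type.

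Class E had 695 and 698 CPM in the Inr-a duplication and 760 and 697 CPM in wild type, a ratio of 0.955 ± 0.059. The 10 genes of the GstE cluster summed to 217 and 312 CPM against 208 and 193 CPM, of which GstE3 was the larger share, and without GstE3 the other 9 gave 71.0 and 94.4 CPM against 90.6 and 79.4 CPM, with overlap. The 4 epsilon genes elsewhere on 2R summed to 478 and 386 CPM in the Inr-a duplication against 552 and 505 CPM in wild type, without overlap, although GstE11 among them overlapped. Whether genes inside and outside the cluster differ was not tested.

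Class S, which is GstS1 alone, had a ratio of 1.25 ± 0.13. Class O summed to 308 and 323 CPM against 343 and 390 CPM, a ratio of 0.861 ± 0.083, and class T to 364 and 333 CPM against 379 and 427 CPM, a ratio of 0.864 ± 0.091. Class Z had 20.7 and 34.0 CPM against 17.6 and 16.5 CPM, a ratio of 1.61 ± 0.56. The groups did not overlap in classes D, S and Z, with the Inr-a duplication higher, nor in classes O and T, with it lower, and they overlapped in class E.

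**Figure D4:**
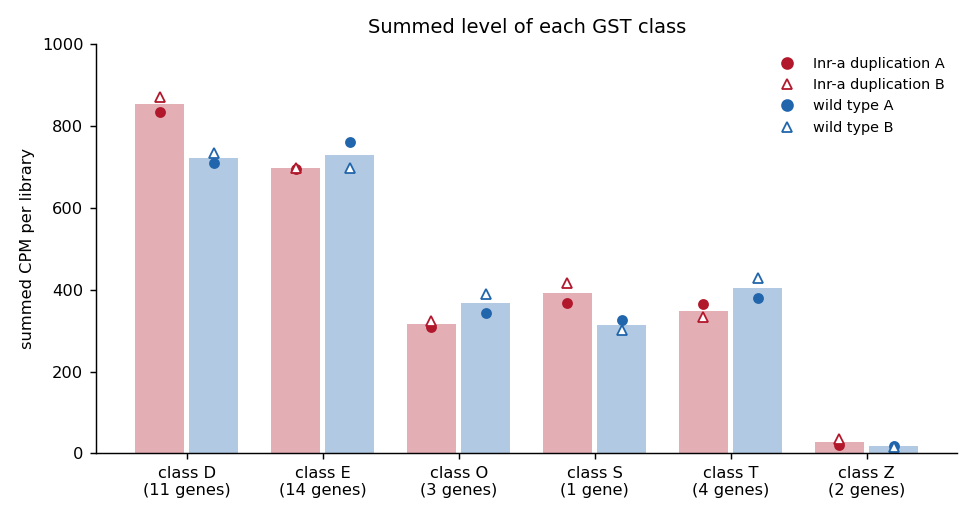
Summed CPM of the genes of each GST class, with bars for the mean of each genotype and points for libraries A and B, Inr-a duplication in red and wild type in blue. Class D reaches 834 and 872 CPM in the Inr-a duplication against 708 and 734 CPM in wild type, and the points of class E overlap.

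Spread between libraries of 1 genotype was uneven. Of the 30 members tested, 9 had a CPM in Inr-a duplication library B over 1.5 times that in library A, and 1 the reverse, while in wild type 3 had B over 1.5 times A and 0 the reverse. These CPM leave out the TMM factors, which were 0.942 for Inr-a duplication library A and 1.04 for B. TMM scaling would lower each ratio of B to A, and members above 1.5 were not counted after it. The 9 included GstD10 and GstE7, at ratios of 1.83 and 2.996, and GstE10 and GstZ2, nearer the limit at 1.56 and 1.65. The share of all genes tested above the limit was not computed, so the 9 cannot be set against it. The hemocyte and muscle lists were likewise higher in library B in CPM. The part of those tissues in these values was not tested. The members are short, with longest transcripts of 725 to 2202 bases (median 881), beside a median of 1862 bases over all genes tested, and the median log2 fold change of the 5706 genes tested in that range of lengths was -0.13. GstZ2 alone set the upper end of that range, and genes nearer the median length of the members were not described apart. With the trend over length taken out, an alternative added after seeing the data, GstD10, GstE5 and GstE7 were called and GstE8 was not (log2 fold change -0.82, adjusted p 0.088 by limma). By an unadjusted p below 0.05 in limma, 9 members then stood higher and 2 lower, beside 1093 and 976 of 11510 genes.

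For 13 members the values list several transcripts, and the assignment of reads among transcripts of 1 gene is an estimate. The higher level of GstD10 lay in transcript FBtr0082609, with 133 and 249 counts in the Inr-a duplication against 14 and 36 counts in wild type, while FBtr0344264 had 19 and 5 counts against 20 and 0. In GstE8 both transcripts were lower: FBtr0086676 had 314 and 268 counts against 549 and 387, and FBtr0345798 had 51 and 55 counts against 130 and 101. In GstE13 the minor transcript FBtr0302495 had 24 and 19 counts in the Inr-a duplication and 56 and 62 in wild type, with no overlap. In GstZ2, transcript FBtr0082042 had 92 counts in Inr-a duplication library B and 0 in the other 3 libraries. Transcript FBtr0082043 of the same gene had 53 and 0 counts in the Inr-a duplication against 38 and 16, so it was at 0 in that library B. No single transcript was called when limma was run on all 20111 transcripts that passed the same filter, of the family or of any other gene. In that run 9 of the 46 transcripts of the family tested, and 2282 of all, had an unadjusted p below 0.05.

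Several members overlap another gene on the opposite strand in the annotation: GstE1 and GstE10 overlap each other, GstE9 overlaps imd, GstE12 overlaps CG3894, GstE13 overlaps CG18659, GstO2 overlaps se and GstT2 overlaps CG12926. Whether the libraries kept the strand is not given in the sources used here, so reads of these pairs may be mixed. None of the 4 called genes is among them.

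A list drawn up for the synthesis and recycling of glutathione, the shared substrate, gave 1 call among 10 tested. That call was Gnmt, higher, which encodes glycine N-methyltransferase, an enzyme that consumes S-adenosylmethionine and does not act on glutathione itself. The subunits of glutamate-cysteine ligase, which makes the first and limiting step of glutathione synthesis, stood apart in opposite directions. The catalytic subunit gene Gclc had 50.2 and 69.7 CPM in the Inr-a duplication against 33.9 and 37.9 CPM in wild type (log2 fold change 0.75, SE 0.26, adjusted p 0.123 by limma). The modifier subunit gene Gclm had 117 and 114 CPM against 261 and 180 CPM (log2 fold change -0.87, SE 0.27, adjusted p 0.083 by limma). The libraries of both genes did not overlap, and neither gene was called.

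Ggt-1, a gamma-glutamyl transpeptidase gene, had 241 and 120 CPM against 331 and 326 CPM (adjusted p 0.113 by limma), also uncalled. The median log2 fold change of the glutathione list, with Gnmt included, was -0.17. Of 5 GST-like genes outside the symbol rule (Clic, Mgstl, eEF1gamma, gfzf and se), 0 were called. By unadjusted p 1 of the 5, Clic, stood higher, where 12.2% of all genes tested did so. The median log2 fold change of these 5 genes was 0.25.

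A list of CncC-Keap1 genes and other regulators linked to xenobiotics gave 0 calls among 10 tested. By unadjusted p 2 stood higher, tgo and Met, and 0 lower, where 12.2% and 8.61% of all genes tested did so. The list had a median log2 fold change of 0.43. The gene cnc, which encodes CncC, had 128 and 184 CPM in the Inr-a duplication against 143 and 111 CPM in wild type, with overlap. Keap1 had 12.7 and 11.4 CPM against 7.41 and 9.02 CPM (log2 fold change 0.56, SE 0.30, adjusted p 0.275 by limma), and was not called.

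The other detoxification families gave calls in 1 direction. Of 18 P450 genes linked to xenobiotics that were tested, 5 were called higher and 0 lower, with a median log2 fold change of 0.72. Cyp6a23 had the largest change among them, at 65.7 and 94.1 CPM in the Inr-a duplication against 12.3 and 23.4 CPM in wild type (log2 fold change 2.21, SE 0.29, adjusted p 5.5e-05 by limma). The other 4 were Cyp309a1, Cyp12a5, Cyp6a21 and Cyp6a9, with log2 fold changes from 1.26 to 1.37. Over the whole P450 family, 6 of 69 tested were called higher and 0 lower, with a median of 0.33. Of 23 UDP-glycosyltransferase genes tested, which encode phase II enzymes that attach sugars, 5 were called higher and 0 lower, with a median of 0.53. Ugt37A2 showed 17.7 and 8.59 CPM against 1.75 and 2.57 CPM (log2 fold change 2.32, SE 0.36, adjusted p 0.000406 by limma). By unadjusted p, 27 of the 69 P450 genes stood higher and 3 lower, and 10 of the 23 UDP-glycosyltransferase genes higher and 0 lower, against the shares of all genes given above. Whether these families differ from the GST genes was not tested.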

How the data were processed

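RNA of whole third-instar larvae was sequenced from 2 libraries of the Inr-a duplication and 2 of wild type. The authors trimmed reads with Trimmomatic, quantified transcripts with Salmon 1.4.0 against the Ensembl transcriptome (BDGP6), read the estimates into R with tximport, and deposited CPM averaged over the libraries of a genotype. A deposited column with the ratio of both means is the authors' own comparison and was not used. The authors tested genes with DESeq2, which was not run here.

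Counts of single libraries were recovered by searching, at library totals fitted from the data, for whole counts in A and B whose mean CPM is the deposited value. Exactly 1 pair was found for 99.73% (Inr-a duplication) and 99.45% (wild type) of transcripts above 0, several pairs for 66 and 131 and no pair for 0. When the members' values were moved at random, a pair was found by accident in 0.321% and 0.283% of cases. No per-library column was given, so this recovery cannot be checked against deposited counts, and replicate numbers could not be attached. The 128 genes for which some transcript fitted several pairs, no GST gene among them, were left out of values per library and tests.

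Transcripts were summed per symbol. Genes were tested (11540) if they reached 15 counts in all and, after scaling to the median library size, 10 counts in 2 or more libraries. Values were log2 of TMM-scaled CPM plus 0.5 (TMM factors 0.942 and 1.04 for the Inr-a duplication, 1.01 and 1.01 for wild type), compared with limma 3.58.1 (trend, two-sided, R 4.3.3), with Benjamini-Hochberg adjustment over all genes tested and a threshold of 0.05. The test was checked on simulated counts. The study calls the libraries of a genotype biological replicates, without saying whether they came from separate crosses or cultures, so p-values measure only the spread between these libraries, and an exact permutation test of 2 against 2 could not go below a two-sided p of 0.333. Class sums are sums of CPM per library.

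Every member may be named. Full values were given for called members, the most abundant of each class and those with an unadjusted p below 0.05, and others by counts or values per library. The members and lists were chosen with earlier results of these data known. Alternatives were other scalings, pseudocounts and filters, transcripts in place of genes, a library left out, and a length trend (lowess, span 0.3, statsmodels 0.14.6) taken out. Positions come from Ensembl release 115 (BDGP6.54), later than the annotation of the authors. Scripts ran in Python 3.11.15 with pandas 2.3.3, numpy 2.4.6 and matplotlib 3.10.9.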

Additional observations from a re-analysis of the deposited data

How the results depend on the processing

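The 3 higher and 1 lower calls of the family became 1 and 0 under library-size scaling (GstD10 remained), 1 and 0 with no filter beyond 1 count, and 0 and 0 on transcripts, where 9 transcripts of the family had an unadjusted p below 0.05. GstE8 was also lost at a pseudocount of 0.1 (0 lower) and with the length trend taken out (0 lower). The stricter count filter left GstE5 out of the test and gave 2 higher and 1 lower. With 1 library left out the calls ranged from 1 to 3 higher and from 0 to 1 lower. With a lone library, the genotype was assumed to vary like the other. Genome-wide, 199 genes were called higher and 58 lower, and the alternatives on genes ranged from 45 to 569 higher and from 14 to 505 lower. The adjusted p over all alternatives reached 0.368 for GstD10, 0.42 for GstE5, and 0.403 for GstE7 and GstE8.

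The direction turned only in uncalled members with small log2 fold changes. With 1 library left out, values ranged from -0.52 to 0.13 for GstD2, -0.32 to 0.13 for GstD3, -0.10 to 0.83 for GstD4, -0.35 to 0.18 for GstD8, -0.59 to 0.48 for GstE6, -0.57 to 0.24 for GstE11 and -0.080 to 0.11 for GstO2. GstO2 also turned under library-size scaling (-0.0062). With the length trend taken out, the sign turned in GstD2 (0.023), GstD3 (0.13), GstD8 (0.13), GstE6 (0.17), GstE11 (0.049) and GstO3 (0.049). All tested members but GstZ2 had a higher value under that setting, such as GstD1 at 0.51 in place of 0.30. GstZ2 stood at 0.74 in place of 0.77. The cause of the turns was not tested.

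The ratio of the class sums moved by more than its SD only when the most abundant gene was left out, to 0.993 for class D without GstD1, 1.11 for class E without GstE12, 0.71 for class T without GstT4 and 0.974 for the family without GstD1. No paired analysis was possible because the recovered libraries carry no replicate number. At this depth the 5 untested members had at most 9 counts in any library.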

Other observations

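Enzymes that remove peroxides and superoxide without glutathione transfer were described by a separate list. Of 11 antioxidant genes tested, 0 were called by limma in either direction. By an unadjusted p below 0.05, 2 stood higher and 0 lower, where 12.2% and 8.61% of all genes tested did so. The list had a median log2 fold change of 0.09. The pair that stood higher were the peroxiredoxin genes Prx2540-1 and Prx2540-2. Prx2540-1 had 8.49 and 6.39 CPM in the Inr-a duplication against 1.27 and 4.78 CPM in wild type (log2 fold change 1.39, SE 0.40, adjusted p 0.065 by limma). Prx2540-2 had 9.79 and 8.38 CPM against 4.62 and 6.10 CPM (log2 fold change 0.75, SE 0.31, adjusted p 0.182 by limma). Both are near copies of each other, so reads may have been split between them. Sod1, the cytosolic superoxide dismutase gene, had 618 and 513 CPM against 809 and 861 CPM (log2 fold change -0.54, SE 0.29, adjusted p 0.286 by limma), and the catalase gene Cat had 894 and 877 CPM against 860 and 753 CPM. The libraries of these 4 genes did not overlap between the genotypes, and none was called. Among the other genes of the list, Sod3 and Irc lay higher in the Inr-a duplication without overlap, and Sod2 and Prx5 lower. Over all genes tested, 22.9% had both Inr-a duplication libraries above both wild type libraries and 30.3% both below.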
